A study of Mus musculus with 2 samples.

Results

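Adipocyte-like cells of mouse knee synovium, the tissue that lines the joint, were examined in single-cell RNA sequencing data from wild-type animals. The cells were selected on their UMI counts (unique molecular identifiers, each standing for 1 captured RNA molecule): a cell was taken as adipocyte-like when Adipoq, Plin1 and Cidec together had at least 5 UMIs from at least 2 of these 3 genes, Cdh5 and Pecam1 together had at most 1 UMI, and Ptprc had none. The rule found 59 of 10946 kept cells, 39 of 3871 in the MMS library and 20 of 7075 in the Control library. Kept cells are those with 1000 or more UMIs, 500 or more detected genes and no more than 10% of UMIs from mitochondrial genes. Each library was 1 pool of 20 knees of wild-type mice, so that the animals cannot be told apart and no value has a replicate. The MMS library also carries the label D14, and the labels spell out neither name. Both tissues were minced, digested with Liberase TL and DNase and strained.

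White adipocytes store triglyceride in a single lipid droplet that is coated by perilipin and enlarged by droplet-fusion proteins, and they release the fat again through the lipases of lipolysis. They take up fatty acids that lipoprotein lipase frees from circulating lipoproteins, and they secrete hormones and complement factors, among them adiponectin, resistin, leptin and adipsin. In the knee, adipocytes are known from the fat pad that lies behind the patellar tendon and is covered by synovium, and from the marrow of the adjoining bones.

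The cell type label in the records names goblet cells, but none of 8 goblet cell markers (Muc2, Tff3, Fcgbp, Clca1, Agr2, Spdef, Zg16 and Muc5ac) had a UMI in any of the 39 MMS and 20 Control adipocyte-like cells. The adipocyte identity held in part. Summed over 12 adipocyte markers, the 3 genes of the rule left out, the level was 42031 CPM (UMIs per 1000000 UMIs of the same cells) in the adipocyte-like cells and 3270 CPM in the other kept cells of the MMS library, and 86536 CPM against 6163 CPM in the Control library. Beyond the genes of the rule, Car3, Cfd, Lpl and Fabp4 were detected in 37, 39, 39 and 39 of the 39 MMS cells and in all 20 Control cells each. Ucp1, the uncoupling protein of brown fat, and Lepr, which marks marrow stromal cells that can become adipocytes, had no UMI in any member; a count of 0 in so few cells allows a share of cells with a UMI of up to 7.69% in MMS and up to 15% in Control, and says nothing of cells that express the gene below detection. The members were not uniform: 31 cells with a UMI of Retn, which encodes resistin, were high in the genes of lipid storage, whereas the 28 cells without one combined Adipoq, Lpl, Car3 and Cfd with low Fabp4, Cidec and Lipe.

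To show where these transcripts start, the promoter windows of 3 genes are given: Adipoq, which defines the cells; Retn, on which they divide; and Ibsp, which was among the genes highest in the cells without Retn. Each window runs from 250 bases before to 50 bases after the RefSeq start on the plus strand of GRCm38.p6, and the capitals mark CCAAT, the core of a common promoter element, on either strand (ATTGG on the strand printed). The windows are chr16:23146286-23146585 for Adipoq, chr8:3655520-3655819 for Retn and chr5:104299037-104299336 for Ibsp.
Adipoq: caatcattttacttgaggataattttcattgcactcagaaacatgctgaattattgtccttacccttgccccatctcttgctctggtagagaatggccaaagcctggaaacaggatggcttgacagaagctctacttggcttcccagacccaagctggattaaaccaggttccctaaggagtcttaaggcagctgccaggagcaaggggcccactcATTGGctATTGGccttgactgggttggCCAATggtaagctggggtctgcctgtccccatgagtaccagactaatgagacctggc
Retn: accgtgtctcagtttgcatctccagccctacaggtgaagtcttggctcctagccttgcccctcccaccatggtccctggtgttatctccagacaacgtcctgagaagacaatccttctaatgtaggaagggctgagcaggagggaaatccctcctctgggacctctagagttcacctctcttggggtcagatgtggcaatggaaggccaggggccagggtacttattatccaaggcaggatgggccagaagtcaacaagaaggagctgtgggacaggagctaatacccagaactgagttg
Ibsp: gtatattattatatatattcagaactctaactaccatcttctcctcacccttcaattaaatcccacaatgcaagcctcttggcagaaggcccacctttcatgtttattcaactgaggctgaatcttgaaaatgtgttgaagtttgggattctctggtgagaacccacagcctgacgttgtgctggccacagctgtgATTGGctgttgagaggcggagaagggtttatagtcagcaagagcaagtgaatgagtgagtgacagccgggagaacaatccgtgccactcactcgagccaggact
The Adipoq window held 3 CCAAT boxes, the Ibsp window 1 and the Retn window 0, where 37.4% of all 32851 promoter windows held at least 1. TTGCNNAA, a core of the sites bound by C/EBP proteins, was in none of these 3 windows and in 10.8% of all windows on either strand. In the GENCODE annotation of the same build, Adipoq lies on chromosome 16 at 23146536 to 23158028, Retn on chromosome 8 at 3655770 to 3660110 and Ibsp on chromosome 5 at 104299171 to 104311469, each a protein-coding gene on the plus strand; the GENCODE start of Ibsp lies within the window printed, before the RefSeq start.

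The libraries held 85597195 UMIs for MMS and 84900876 UMIs for Control over all barcodes. The median adipocyte-like cell had 24590 UMIs in MMS (1505 to 86675) and 10235 UMIs in Control (1011 to 30537), and the medians of the other kept cells were 17638.5 and 11173 UMIs. 6 barcodes occurred in both barcode lists, and 0 of the members were among them. A doublet caller marked 106 kept MMS cells and 184 kept Control cells, of which 0 were members. Intervals are 95% and exact (Clopper-Pearson for shares, conditional binomial for ratios), and they cover counting error only, not the spread between animals or libraries.

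Adipocyte-like cells made up a larger share of the MMS library than of the Control library. They were 1.01% of kept cells in MMS (39 of 3871; interval 0.717% to 1.37%) and 0.283% in Control (20 of 7075; 0.173% to 0.436%), a difference of 0.725 percentage points (0.397 to 1.108). Among kept cells with no Ptprc UMI, which leaves out the leukocytes, the shares were 1.37% in MMS (0.973% to 1.86%) and 0.359% in Control (0.220% to 0.554%). Rule UMIs per cell, which chose the members and are a description only, had a median of 44 (5 to 331) in MMS and 22 (5 to 275) in Control. At least 10 were found in 36 MMS and 15 Control members. The MMS members were deeper, with a median of 24590 UMIs against 10235 in Control. Relative to the total, the 3 genes were lower in MMS members (log2 ratio -0.42 for Adipoq, -0.64 for Plin1 and -0.84 for Cidec). Just inside the limit lay 2 MMS and 3 Control members with 5 to 7 rule UMIs, and just outside it lay 11 MMS and 45 Control cells with 3 or 4. A further 16 MMS and 4 Control cells had at least 5 UMIs from only 1 of the 3 genes, and the limits on Cdh5, Pecam1 and Ptprc left out 3 MMS and 9 Control cells. The rule asks for a fixed count of UMIs, and the libraries differed in depth. Kept cells other than members had a median of 17638.5 UMIs in MMS and 11173 in Control, and the part of depth in the shares was not tested.

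The genes that set the members most apart from all other kept cells included many that are known from mature fat, among which the genes of the rule are a description only. The 20 highest ratios of mean CPM over both libraries ran from 100.4-fold for Ankef1 to 776-fold for Pon1, the gene of paraoxonase. Pon1 led through Control (1011-fold, with 49.5% of its member UMIs in 1 cell), while in MMS it was at 255-fold, below Lgals12 (660-fold), Slc7a10 (637-fold), Cyp2e1 (604-fold) and others. The 20 also included Cfd (adipsin, complement factor D, 417-fold), Adipoq (335-fold), Plin1 (336-fold), Car3 (carbonic anhydrase, 184-fold), Retn (163-fold) and Cidec (158-fold). Less familiar members of this group were Calml3 (a calmodulin-like protein, 384-fold), Cyp2e1 (a cytochrome P450, 310-fold), Slc7a10 (an amino acid transporter at the adipocyte surface, 288-fold), Mrap (the melanocortin receptor accessory protein, 242-fold), Apoc1 (an apolipoprotein, 222-fold), Adig (adipogenin, 172-fold) and Lgals12 (a galectin of lipid droplets, 173-fold). The carboxylesterases Ces1f (235-fold) and Ces1d (112-fold) have near-identical neighbours, so their counts are uncertain. Of 18 kept MMS cells and 11 kept Control cells with at least 10 Calml3 UMIs, 12 MMS and 7 Control cells were members. The members held 80.5% of all Adipoq UMIs of kept MMS cells and 49.96% of those of kept Control cells, and 83.1% and 55.4% of the Cfd UMIs. The remaining UMIs lay in other kept cells, some of them high: at least 10 UMIs were found in 12 MMS and 4 Control cells outside the members for Adipoq, in 25 and 29 for Car3, and in 27 and 108 for Cfd. Car3 had a UMI in 12.9% of the other MMS cells and in 29.8% of the other Control cells, and Cfd in 17.1% and 42.1%. The part of such RNA in single UMIs of a member was not tested. Fabp4 differed from these genes in that the members held only 4.34% of its UMIs in MMS and 0.574% in Control; endothelial cells, gated by Cdh5 and Pecam1, had 24973 CPM in MMS and 43790 CPM in Control.

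Cell by cell, the adipocyte genes were broad but uneven. Adipoq had a median of 30 UMIs per MMS member (0 to 253, detected in 38 of 39) and 16 per Control member (1 to 186, in 20 of 20). Car3 had a median of 67 UMIs per MMS member (0 to 1056) and 88 per Control member (3 to 528). Cfd had a median of 172 UMIs per MMS member (11 to 3539) and 205.5 per Control member (19 to 4050), so that the ranges of both libraries overlapped almost fully although the MMS cells were deeper. Lpl, which frees fatty acids from lipoproteins, had a median of 27 UMIs per MMS member (2 to 341) and 7 per Control member (1 to 77). Lep, the gene of leptin, was seen in 8 of 39 MMS members and 5 of 20 Control members, and 1 member, in MMS, reached 10 UMIs. Retn had no UMI in 22 MMS and 6 Control members, and up to 91 UMIs in MMS and 110 UMIs in Control members.

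**Figure D1:**
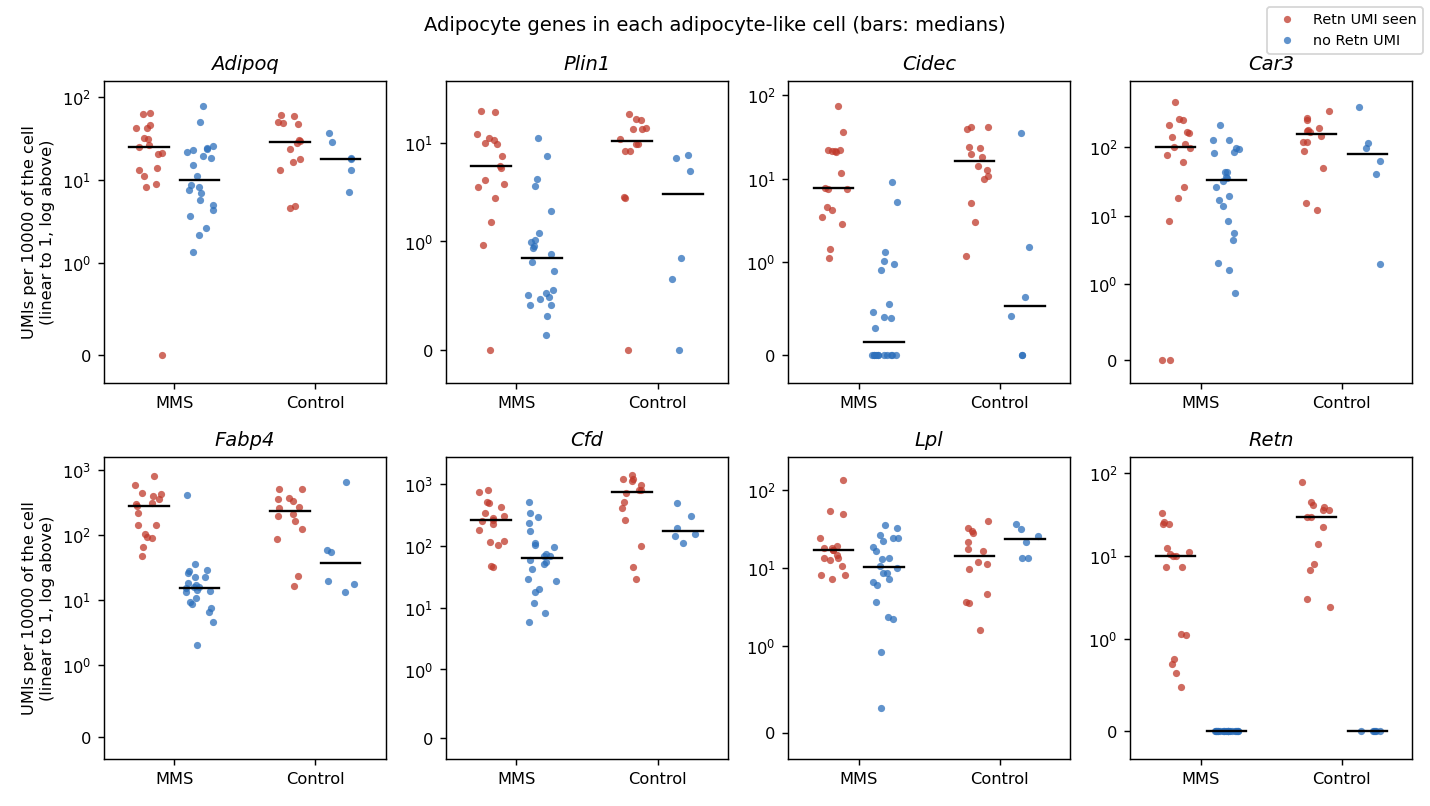
UMIs per 10000 for adipocyte genes in each adipocyte-like cell of the MMS library (39 cells) and the Control library (20 cells), with 1 point per cell. Adipoq was present in 38 of 39 MMS and all 20 Control cells, whereas Retn was at 0 in 22 MMS and 6 Control cells.

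Detection of Retn divided the members, and the split was chosen after the values were seen, so that all that follows from it is a description. Retn had at least 1 UMI in 17 of 39 MMS members (43.6%; 27.8% to 60.4%) and in 14 of 20 Control members (70.0%; 45.7% to 88.1%), a difference of -26.4 percentage points with an interval (-50.4 to 3.11) that includes 0. Among other kept cells a Retn UMI was found in 2.43% in MMS and 7.36% in Control, and among gated endothelial cells, which should lack it, in 4.07% and 12.8% at median depths of 7882.5 and 3828 UMIs. At the limit, 4 MMS and 2 Control members had only 1 or 2 Retn UMIs. Depth did not order the classes alike in both libraries: cells with Retn had a median of 25705 UMIs in MMS and 4995.5 in Control, and cells without Retn had 24392 and 14861. When every cell was thinned to 2000 UMIs, which left out 1 MMS and 6 Control members, the shares with Retn were 26.3% in MMS and 50% in Control. Among members with at least 10000 UMIs they were 11 of 33 in MMS (33.3%) and 5 of 10 in Control, and among members with no UMI of Pdgfra, a fibroblast and progenitor receptor, 15 of 23 in MMS (65.2%) and 12 of 18 in Control (66.7%). Of the members with a Pdgfra UMI, 2 of 16 in MMS and 2 of 2 in Control had Retn.

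The cells with Retn were high in genes that build, coat and empty the lipid droplet. Fabp4, the fatty acid carrier, ranged from 59 to 1529 UMIs in the 17 MMS cells with Retn (median 213) and from 13 to 1207 in the 22 MMS cells without (median 34.5). In Control it ranged from 11 to 639 UMIs in the 14 cells with Retn and from 28 to 92 in the 6 without, and the UMI ranges overlapped in both libraries. Relative to the total, Fabp4 was at 21630 CPM with and 3463 CPM without Retn in MMS (log2 ratio 2.64), and at 15003 CPM with and 4075 CPM without Retn in Control (1.88). 8 of 22 MMS cells and all 6 Control cells without Retn had at least as many Fabp4 UMIs as the lowest cell with Retn of their library. The highest of them, in MMS, had 1207 Fabp4 UMIs among 29425, with 27 UMIs of Cidec and 7 of Clu, and 1 Control cell without Retn had 92 Fabp4 UMIs among only 1413 and none of Clu. Cidec, which fuses droplets, was found in all 17 MMS and all 14 Control cells with Retn and in 11 of 22 MMS and 4 of 6 Control cells without, at 970 CPM against 103 CPM in MMS (3.24) and 1169 CPM against 107 CPM in Control (3.45). As a gene of the rule Cidec is a description only, since it helped to choose the cells.

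Lipolysis and lipid synthesis genes differed in the same direction as Fabp4. Lipe, the hormone-sensitive lipase, was at 468 CPM with and 58.5 CPM without Retn in MMS (log2 ratio 3.0) and at 565 CPM with and 35.7 CPM without Retn in Control (3.98). Scd1, the stearoyl-CoA desaturase, was at 9332 CPM with and 1796 CPM without Retn in MMS (2.38) and at 4230 CPM with and 846 CPM without in Control (2.32). G0s2, an inhibitor of the lipase ATGL, was 4.03 and 2.29 higher on the log2 scale, and the last enzymes of triglyceride synthesis, Dgat1 (2.13 in MMS and 3.14 in Control) and Dgat2 (2.98 and 1.78), were higher as well. Slc2a4, the insulin-responsive glucose transporter, was seen in 10 of 17 MMS and 5 of 14 Control cells with Retn and in 3 of 22 MMS and 0 of 6 Control cells without. Adipoq itself differed less, at 2777 CPM with and 1706 CPM without Retn in MMS and 3225 CPM with and 2169 CPM without in Control. As a gene of the rule Adipoq is a description only: 11 of 22 MMS cells without Retn had no Cidec UMI and so met the rule through Adipoq and Plin1. Car3 was at 8864 CPM with and 5062 CPM without Retn in MMS and at 11732 CPM with and 6530 CPM without in Control. Cfd was at 35955 CPM with and 11372 CPM without Retn in MMS and at 79030 CPM with and 26834 CPM without in Control.

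Ifi27l2a, an interferon-induced gene, ranked first among the genes higher with Retn, by the smaller of the 2 libraries' ratios. It was at 4331 CPM with and 433 CPM without Retn in MMS (log2 ratio 3.32) and at 11528 CPM with and 763 CPM without Retn in Control (3.92). It was found in 14 of 17 MMS and 13 of 14 Control cells with Retn, against 10 of 22 MMS and 4 of 6 Control cells without.

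Among the genes higher in the cells without Retn were Clu, Cxcl12 and Calml3. Clu, the chaperone clusterin, had 0 to 25 UMIs in MMS cells with Retn (12 of 17 detected) and 7 to 376 UMIs in MMS cells without (22 of 22); in Control it had 0 to 23 UMIs with Retn (5 of 14) and 0 to 170 without (5 of 6). That made 195 CPM with and 2004 CPM without Retn in MMS (log2 ratio -3.37) and 335 CPM with and 6482 CPM without in Control (-4.27). Cxcl12, a chemokine that keeps blood progenitors in the marrow niche, was at 694 CPM with and 2436 CPM without Retn in MMS (-1.81) and at 282 CPM with and 3384 CPM without in Control (-3.58). Calml3 reached 10 UMIs in 4 MMS and 2 Control cells with Retn, and in 8 MMS and 5 Control cells without.

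Ibsp (bone sialoprotein) and Spp1 (osteopontin), both mineral-binding phosphoproteins of bone matrix, were nearly absent from the cells with Retn. They were found in many, but not all, of the cells without. Spp1 had a UMI in 1 of 17 MMS and 1 of 14 Control cells with Retn, a single UMI each, against 15 of 22 MMS cells without (up to 1026 UMIs) and 3 of 6 Control cells without (up to 160 UMIs). Ibsp had 6 UMIs in 1 MMS cell with Retn and none in Control cells with Retn, against 12 of 22 MMS cells without (up to 766 UMIs) and 5 of 6 Control cells without (up to 202 UMIs). No cell with Retn reached 10 UMIs of either gene, whereas 17 of 22 MMS cells and 3 of 6 Control cells without Retn did. The log2 ratios of CPM with over without Retn were -11.08 in MMS and -8.46 in Control for Spp1, each resting on 1 UMI in the cells with Retn, and -6.84 in MMS for Ibsp. Neither gene was particular to these cells: of the kept cells with at least 10 Ibsp UMIs, 10 of 27 in MMS and 3 of 10 in Control were members, and of those with at least 10 Spp1 UMIs, 11 of 467 in MMS and 2 of 21 in Control.

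**Figure D2:**
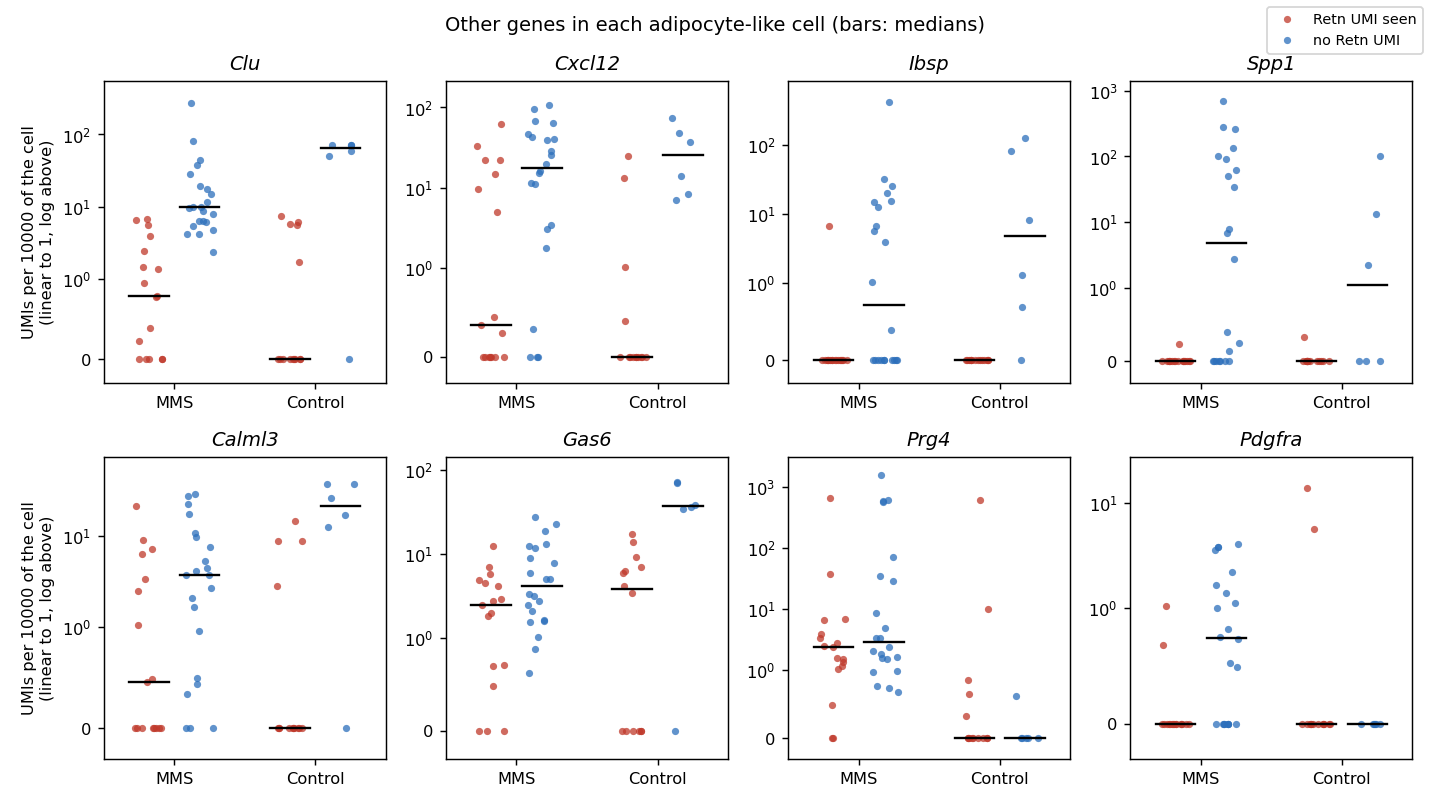
UMIs per 10000 in each adipocyte-like cell for genes that were high in cells without Retn, and for fibroblast and lining genes, in MMS and Control. Ibsp and Spp1 stay at or near 0 in cells with Retn, and Pdgfra was detected in 16 MMS and 2 Control cells.

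Few genes differed by 2-fold across the same split in both libraries. Of 3839 genes with at least 50 UMIs in the members, 124 (3.23%) were at least 2-fold higher with Retn in both libraries and 127 (3.31%) at least 2-fold lower. Apart from Retn and the 3 genes of the rule, 9 of 15 measured adipocyte markers, 4 of 8 lipid droplet proteins, 7 of 15 lipolysis genes, 6 of 17 fatty acid synthesis genes, 6 of 13 triglyceride synthesis genes, 5 of 15 fatty acid uptake genes and 3 of 17 insulin response genes were at least 2-fold higher with Retn in both libraries, and none of these was at least 2-fold lower. These lists were counted with a lower limit of 10 UMIs, at which 170 of 9195 genes were higher and 255 lower by that measure. Fatty acid oxidation genes ran the same way by smaller ratios. Of 19, 13 were higher with Retn in both libraries and 0 lower in both, where 1727 of 9195 genes were higher and 2243 lower, but 0 were so by 2-fold. In the opposite direction lay 4 of 17 fibrosis genes and 5 of 21 inflammatory genes, with 0 and 1 at least 2-fold higher. Some of the lists share genes, and several were drawn up with earlier results of these data known.

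**Figure D3:**
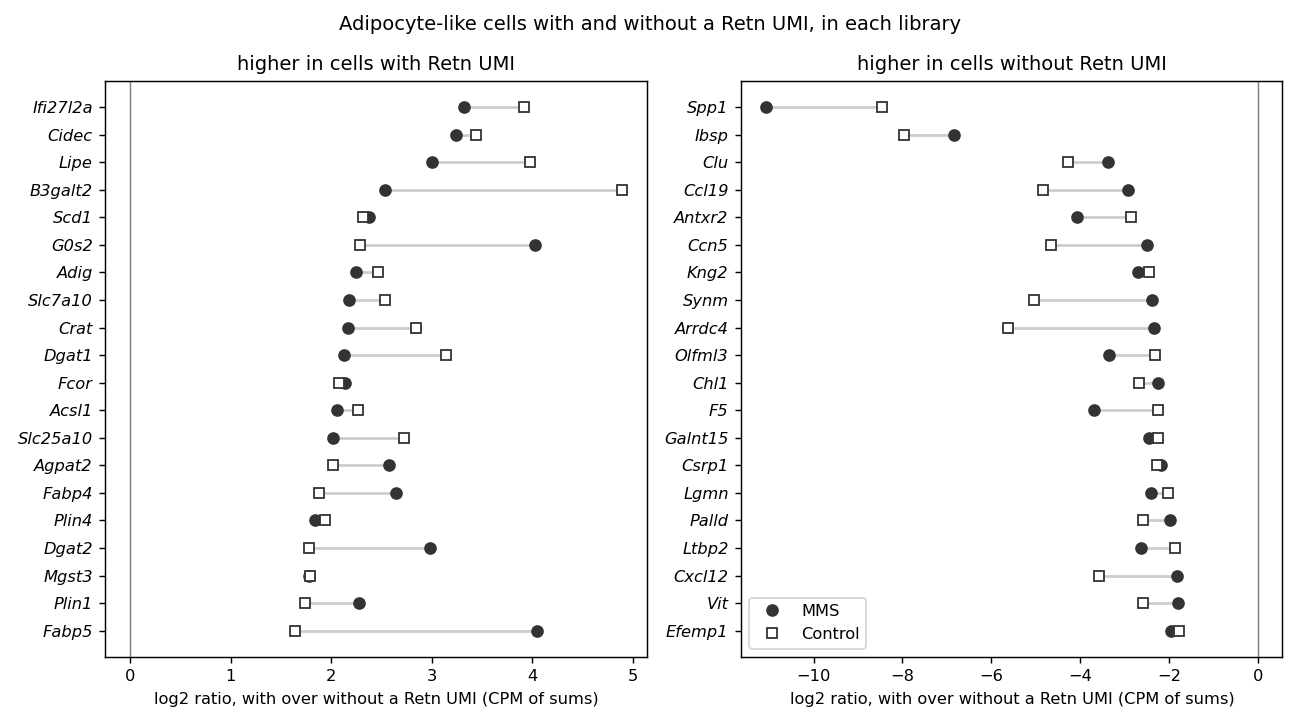
Log2 ratio of summed CPM in cells with Retn over cells without Retn, for the 20 genes highest and the 20 genes lowest in both libraries, with MMS and Control as separate points. Fcor and Fabp5 had no UMI in Control cells without Retn, and Ibsp and Kng2 none in Control cells with Retn, so these 4 Control points are bounds set against 3 counts.

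Markers of other cell types stand beside the split, and their part in it was not tested. Summed over 6 fibroblast markers, the level was 2154 CPM in MMS cells with Retn and 7806 CPM in MMS cells without. In Control it was 13446 CPM with Retn and 1954 CPM without, so that the sum ran in opposite directions in the 2 libraries. The Control sum rested on few cells. Dcn, 1 of the 6 markers, had a median of 0.5 UMIs in Control cells with Retn, with 547, 235 and 102 UMIs in the highest cells. In MMS cells without Retn its median was 15 UMIs (0 to 493). Pdgfra was found in 2 of 17 MMS and 2 of 14 Control cells with Retn, and in 14 of 22 MMS and 0 of 6 Control cells without. The Control cells without Retn, at high Clu, Ibsp and Cxcl12, thus had no Pdgfra UMI. The defining endothelial and leukocyte genes Pecam1, Emcn, Ptprc and Adgre1, and the cartilage gene Acan, were at 0 in all members, where Pecam1 and Ptprc are fixed or limited by the rule. Over the marker lists, endothelial genes summed to 3.85 CPM in MMS and 25.4 CPM in Control members and macrophage genes to 18.3 CPM in MMS and 21.2 CPM in Control members, against 742 and 1014 CPM and 3587 and 5950 CPM in the other kept cells of MMS and Control. Comp, a matrix protein of cartilage and tendon, was in the cells with Retn at 394 CPM in MMS and 808 CPM in Control, and in the cells without at 1647 CPM in MMS and 2276 CPM in Control.

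5 MMS members and 1 Control member stood apart through Prg4, the lubricin gene of synovial lining cells, with at least 1000 UMIs each. They held 98.0% of the Prg4 UMIs of the MMS members and 99.5% of those of the Control members. Of the 5 MMS cells, 1 had a Retn UMI and 4 had none. The MMS member with the most Prg4 (10485 UMIs of 68504) also had 65 UMIs of the proliferation gene Mki67, of which no other member had a UMI. 1 Control member without Retn had 713 UMIs of the haemoglobin gene Hbb-bs. Whether such a barcode held 1 cell or more was not tested beyond the doublet caller, which marked 0 of the members.

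Set side by side over all members, MMS cells had lower relative levels of Cfd and Retn and higher levels of basement membrane genes than Control cells. Of 3839 genes with at least 50 UMIs over both libraries, 432 (11.3%) were at least 2-fold higher in MMS members and 94 (2.45%) at least 2-fold lower. MMS members held 1038756 UMIs and Control members 236156, so a gene can pass this limit through MMS alone, which favours genes higher in MMS. With at least 1 UMI required in each library instead, 1699 of 10317 genes were higher and 1137 lower. After thinning to 2000 UMIs per cell, 21 of 296 genes were higher and 15 lower. At a limit of 10 UMIs, the limit used for lists, 1746 of 9196 genes (19%) were at least 2-fold higher and 411 (4.47%) at least 2-fold lower, and the median log2 ratio over all genes was 0.21, which scaling by the median ratio moves to 0.01. Each comparison was also made within the classes: with Retn 1086 of 6479 genes (16.8%) were higher and 497 (7.67%) lower by 2-fold, and without Retn 1248 of 7676 (16.3%) were higher and 526 (6.85%) lower.

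Adipokines were led by Cfd. Cfd summed to 20984 CPM in MMS and 60481 CPM in Control members, a log2 ratio of -1.53 (-1.56 to -1.50), and it was lower in both classes (-1.14 with Retn and -1.24 without). Per Adipoq UMI there were 9.88 Cfd UMIs in MMS and 21.2 in Control, a description only since Adipoq helped to choose the cells. In the other kept cells of the 2 libraries the Cfd ratio was nearly the same, -1.36, so that a difference of this size was not confined to the members. Retn was at 313 CPM in MMS and 1385 CPM in Control (-2.15; -2.37 to -1.92), and among other kept cells its ratio was -2.59. Adipoq was at 2125 CPM in MMS and 2850 CPM in Control (-0.42; -0.55 to -0.30), but at 0.04 among members with no Pdgfra UMI; as a gene of the rule it is a description only. Lep was level, with 38 UMIs in MMS and 9 in Control (-0.06). Of 17 measured adipokines, 6 were higher and 11 lower in MMS, where 63.2% of all genes were higher. By at least 2-fold 4 were higher and 2 lower, against 19% and 4.47% of all genes, and the 2 were Cfd and Retn.

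Mature adipocyte markers other than the 3 genes of the rule were more often lower than higher over all MMS members, but not within the classes. Of 16 measured, 5 were higher and 11 lower, with a median log2 ratio of -0.18, where 63.2% of all genes were higher. With Retn 9 of 16 were higher (median 0.15), where 60.0% of all genes were (median 0.22). Without Retn 6 of 12 were higher (median 0.06), where 53.8% of all genes were (median 0.09). In both classes the median of the markers thus lay below that of all genes. Car3 was at 6548 CPM in MMS and 9883 CPM in Control (-0.59; -0.66 to -0.53). Plin1, at 420 CPM in MMS and 656 CPM in Control, and Cidec, at 442 CPM and 792 CPM, chose the cells and are given as a description: 5 rule UMIs weigh more in a shallow cell, and 1 MMS and 6 Control members had under 2000 UMIs. Fabp4 was close, at 10567 CPM in MMS and 11120 CPM in Control (-0.07), as was Lpl, at 1551 CPM and 1507 CPM (0.04). Among the transcription factors of adipogenesis, Pparg was at 93.4 CPM in MMS and 174 CPM in Control (-0.89) and Cebpa at 330 CPM and 609.8 CPM (-0.88). Cebpd, an early factor of the programme, was at 156 CPM in MMS and 783 CPM in Control (-2.33; -2.64 to -2.02). Srebf1, which drives lipid synthesis genes, lay the other way, at 270 CPM in MMS and 119 CPM in Control (1.18). Over the 15 measured factors 7 were higher and 8 lower.

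**Figure D4:**
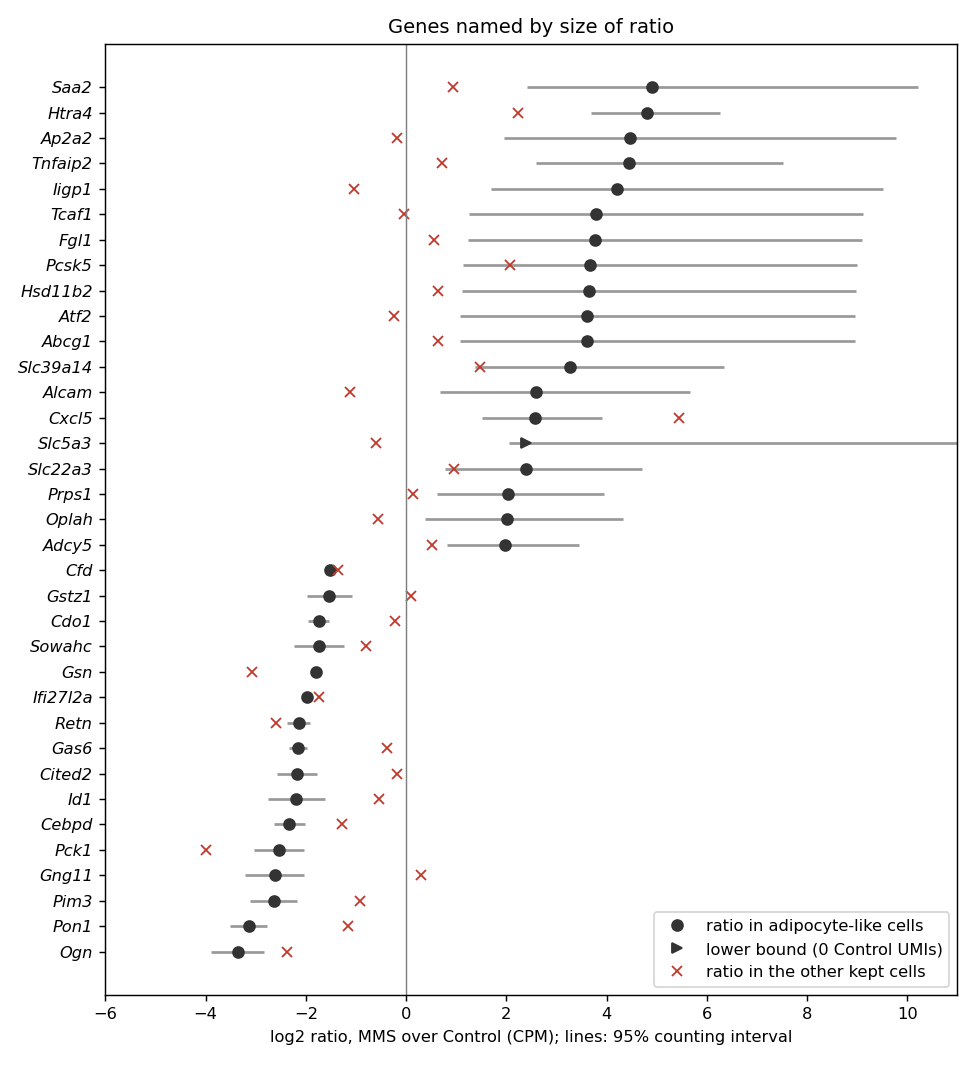
Log2 ratio of summed CPM in MMS over Control members for the genes named by size, with exact 95% counting intervals. Saa2 (4.91), Htra4 (4.81) and Ap2a2 (4.46) lie at one end with wide intervals, and Ogn (-3.36) and Pon1 (-3.14) at the other; Slc5a3 had no Control UMI and is drawn at its bound.

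Genes of fatty acid uptake lay above the median of all genes in MMS members. Of 15 measured, 12 were higher and 3 lower, where 63.2% of all genes were higher; 4 and 0 were so by 2-fold, and the median was 0.57. Among cells with Retn 13 of 13 were higher, where 60.0% of all genes were, 7 by 2-fold, with a median of 1.04. Among cells without Retn only 8 of 15 were higher and 6 lower, where 53.8% of all genes were higher. There 3 were higher and 2 lower by 2-fold, with a median of 0.41. Among the 4 over all members were Fabp5 (1.22), the acyl-CoA ligase Acsl4 (1.54) and the lipoprotein receptor Vldlr (2.22). Vldlr and Acsl4 had only 2 and 5 UMIs in Control. Cd36, the fatty acid translocase, was at 378 CPM in MMS and 254 CPM in Control (0.57). Scd1 was at 4742 CPM in MMS and 3028 CPM in Control (0.65), G0s2 at 643 CPM and 292 CPM (1.14) and Apoc1 at 1015 CPM and 462 CPM (1.14). Lipolysis genes had 5 higher and 10 lower of 15, with a median of -0.12, but the median turned to 0.35 with Retn, 0.06 without Retn and 0.40 among members with no Pdgfra UMI. Lipe was at 219 CPM in MMS and 377 CPM in Control (-0.79). Adrb3, the adrenergic receptor of fat cells, had 2 UMIs in 2 MMS members and 13 UMIs in 5 Control members. Pck1, which supplies glycerol for re-esterification, was at 60.7 CPM in MMS and 351 CPM in Control (-2.53; -3.03 to -2.04). Fatty acid oxidation (median 0.05, 1 of 19 past 2-fold), triglyceride synthesis (0.04, 1 of 13) and insulin response (-0.08) stayed near the median of all genes. So did lipid droplet proteins, at 0.28 over the 8 measured without the genes of the rule and 0.11 with them.

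Basement membrane and adipose matrix genes were the list with the highest median, 0.95, with 14 of 15 higher in MMS members and 7 past 2-fold, against 19% of all genes. Col4a1 was at 760 CPM in MMS and 394 CPM in Control (0.95), Col4a2 at 308 CPM and 106 CPM (1.54), Col6a3, the source of endotrophin, at 495 CPM and 195 CPM (1.35), and Lamb1 at 186 CPM and 38.1 CPM (2.29). The exception was Sparc, at 2236 CPM in MMS and 4895 CPM in Control (-1.13). The median stayed at 0.89 with Retn, 0.49 without Retn and 0.74 among members with no Pdgfra UMI. Fibrosis genes were divided, with 8 of 17 at least 2-fold higher and 4 at least 2-fold lower, against 19% and 4.47% of all genes. Fn1, Spp1 and Loxl1 were among the 8. Col1a1, at 440 CPM in MMS and 1364 CPM in Control (-1.63), and Col1a2 (-1.45) were among the 4. Yet Col1a1 was detected in 30 of 39 MMS and only 7 of 20 Control members, and Col1a2 in 35 and 12. In the other kept cells Col1a1 was at 8717 CPM in MMS and 5086 CPM in Control. Fn1 was at 5723 CPM in MMS and 1262 CPM in Control (2.18), but its median was 1 UMI per MMS cell and 0 per Control cell, with up to 2168 UMIs in a single MMS cell and 288 in a single Control cell. Over 3 lining fibroblast markers, Prg4 among them, members had 24073 CPM in MMS and 6610 CPM in Control, and the part of such RNA in these matrix values was not tested.

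Acute phase and inflammatory genes had medians of opposite sign in the 2 classes. Of 21 measured, 14 were higher and 7 lower over all members, close to the 63.2% of all genes that were higher. By 2-fold 9 were higher and 3 lower, against 19% and 4.47% of all genes, and the median was 0.37. The medians were -0.51 with Retn and 0.92 without, and the difference between the classes was not tested. Saa2, a serum amyloid, had 132 UMIs in 13 MMS cells and 1 UMI in Control (4.91; 2.40 to 10.22), with reads that may be shared with its near-identical copy Saa1. Lcn2, the iron-scavenging lipocalin, was at 387 CPM in MMS and 42.3 CPM in Control (3.19). Hp, haptoglobin, was found in every member, at 9465 CPM in MMS and 5479 CPM in Control (0.79). Per Adipoq UMI there were 4.45 Hp UMIs in MMS and 1.92 in Control. That is a description only, since Adipoq is a gene of the rule and was itself lower in MMS members. The chemokine Cxcl5 had 184 UMIs in 10 MMS cells and 7 UMIs in 3 Control cells (2.58; 1.51 to 3.91), beside a ratio of 5.45 in the other kept cells. Cxcl2 (-1.75) and Ccl11 (7 UMIs in MMS and 27 in Control) lay the other way. Immediate early genes, which tissue digestion is known to induce, also ran in opposite directions, with medians of -0.98 with Retn, 0.97 without Retn and -0.95 in the other kept cells.

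**Figure D5:**
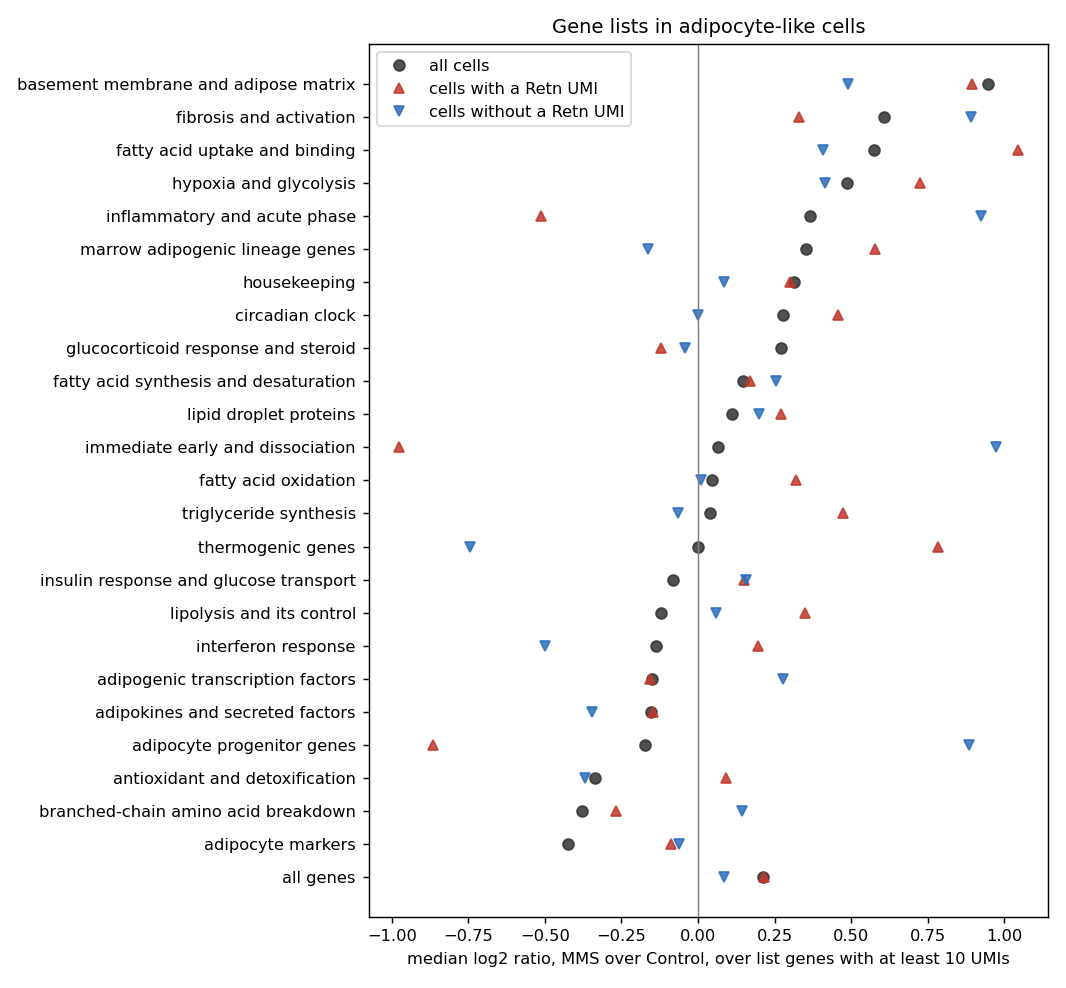
Median log2 ratio of MMS over Control for 24 gene lists in all members and within the cells with and without Retn. Basement membrane genes have the highest median over all members (0.95) beside 0.21 for all genes. The adipocyte markers (-0.42) include the 3 genes of the rule, and the lipid droplet proteins (0.11) include some of them. Some lists differ in sign between the classes.

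Some of the genes with extreme ratios were carried by a few cells, and others were spread over most members. Htra4, a secreted serine protease, had 740 UMIs in 10 MMS cells and 6 in 1 Control cell (4.81; 3.68 to 6.26), but 2 UMIs in MMS and 6 in Control among members with no Pdgfra UMI. Iigp1, an interferon-inducible GTPase, had 81 UMIs in MMS, 65.4% of them in 1 cell, and 1 UMI in Control (4.20). More evenly spread were Ap2a2, a subunit of the endocytic adaptor AP-2, with 97 UMIs in 32 of 39 MMS cells and 1 UMI in Control (4.46; 1.95 to 9.78), and Tcaf1, with 61 UMIs in 25 MMS cells and 1 in Control (3.79). The zinc importer Slc39a14 (3.27) and the cholesterol exporter Abcg1 (3.62) had 2 and 1 UMIs in Control members, so that their intervals were as wide. Among genes enriched in the members, Slc22a3, an organic cation transporter, had 69 UMIs in 27 MMS cells and 3 UMIs in Control (2.39; 0.78 to 4.70), and Adcy5, an adenylate cyclase, had 104 UMIs in 24 MMS cells and 6 in Control (1.98; 0.81 to 3.46). Slc5a3, a myo-inositol transporter, had 69 UMIs in 18 MMS cells and none in Control; with 3 counts set for the Control group as a whole, it was at least 5.23-fold higher.

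Among the genes lower in MMS members, Pon1 was at 88.6 CPM in MMS and 779 CPM in Control (-3.14; -3.51 to -2.77), with 42.4% and 49.5% of its UMIs in 1 cell of each library. Gas6, a ligand of the TAM receptors, was at 526 CPM in MMS and 2342 CPM in Control (-2.16; -2.33 to -1.98), and was lower in both classes. Its ratio in the other kept cells was -0.38. Cdo1, the cysteine dioxygenase, was at 433 CPM in MMS and 1452 CPM in Control (-1.75; -1.95 to -1.54), found in 36 of 39 and 19 of 20 members, against -0.22 in the other kept cells. Gstz1, of tyrosine breakdown, was at 105 CPM in MMS and 305 CPM in Control (-1.54), against 0.09 elsewhere. Ifi27l2a was at 1957 CPM in MMS and 7703 CPM in Control (-1.98), and at -1.75 elsewhere. Gsn, the actin-severing gelsolin, was at 3203 CPM in MMS and 11069 CPM in Control (-1.79), with a larger ratio of -3.08 in the other kept cells. Gng11 (-2.62) rested on 1 Control cell with 88.9% of its UMIs there. Over the other lists, branched-chain amino acid breakdown had 12 of 15 genes lower (median -0.38) and antioxidant genes 13 of 20 (-0.34), and hypoxia and glycolysis genes had 12 of 13 higher (0.49), 1 of them by 2-fold. The clock genes had 14 of 17 higher (0.28, with at most 18 Control UMIs for each), the marrow lineage genes 6 of 8 (0.35), the housekeeping genes 10 of 14 (0.31) and the glucocorticoid response genes 9 of 16 (0.27), where 63.2% of all genes were higher. The marrow lineage median turned to -0.16 without Retn and to -0.21 among members with no Pdgfra UMI. Fatty acid synthesis (9 of 17 higher, 0.15), interferon response (3 of 7, -0.14) and progenitor genes (5 of 10, -0.17) were about evenly divided by direction, below that share. By 2-fold, 2 fatty acid synthesis genes were higher and 1 lower, 0 interferon response genes higher and 2 lower, and 4 progenitor genes higher and 1 lower. Of all genes, 19% were higher and 4.47% lower by 2-fold. Of 5 measured thermogenic genes 2 were higher and 2 lower.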

How the data were processed

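The authors deposited raw UMI counts per gene and barcode for each library, made with Cell Ranger 5.0.0 per the file headers; Cell Ranger 2.0.0 and the mm10 build are given per the submitters' processing notes. Counts are of 3' ends and were not divided by gene length, so levels are compared within a gene only. Kept barcodes had 1000 or more UMIs, 500 or more detected genes and a mitochondrial share no higher than 10%, called doublets included. UMIs were summed over members per library and divided by the members' total (CPM); the log2 ratio of MMS over Control has an exact conditional binomial 95% interval, and a sum of 0 was set to 3 counts. With 1 library per group no test was possible. Ratios were computed for genes with at least 50 member UMIs, or 10 for the 24 lists.

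Genes were named by size: the 20 highest ratios of members over other cells, the 12 highest and 12 lowest ratios of MMS over Control among genes in at least 25% of members of the library where they are higher and at 0.5 times the level of its other cells or more, and the 10 at each end among genes at 4 times that level; list members, markers and the genes of the rule were also named. For the Retn split the 20 genes highest and lowest in both libraries were named. The members and lists were chosen with earlier results of these data known. Code was tested on simulated data. Python 3.11.15, numpy 2.4.6, scipy 1.17.1, pandas 2.3.3, scanpy 1.11.5 and matplotlib 3.10.9 were used. Promoters are from RefSeq (GRCm38.p6) and gene positions from GENCODE.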

Additional observations from a re-analysis of the deposited data

How the results depend on the processing

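The share difference stayed positive in every alternative tried, from 0.446 percentage points with all 3 genes required to 1.007 among cells without Ptprc. None of these alternatives set the cells of both libraries to the same depth, so the part of depth in the share was not tested. The count of genes at least 2-fold higher in MMS members, 432, was 888 with each cell weighted equally, 205 among members with no Pdgfra UMI, 150 among members with Retn, 21 after thinning, 67 at a minimum of 200 UMIs, 1746 at 10 UMIs, 1699 with 1 UMI in each library and 155 at 3-fold. The count lower, 94, was 221 with equal weights, 15 after thinning, 157 with median ratio scaling, 29 at 200 UMIs, 411 at 10 UMIs, 1137 with 1 UMI in each library and 35 at 3-fold. Thinning, subsets and minima change how many genes can be tested; other causes were not tested. The number of lists with a median above that of all genes was 9 of 24, and 7 to 12 in the alternatives. The Retn share difference ran from -30.5 to -1.45 points. 5 ratios of genes that differed by at least 2-fold over all members changed sign. Among members without Retn, Cyp2e1 was 2.58, Iigp1 -0.11, Pim3 0.26 and Gng11 0.41, and among members with no Pdgfra UMI Htra4 was -2.90. Sign changes of smaller ratios are not in this count, such as that of Adipoq from -0.42 to 0.04 among members with no Pdgfra UMI. Apart from these 5, 586 gene ratios moved by less than their counting interval and 166 by more, and 23 could not be given for lack of UMIs. The MMS members held 1038756 UMIs and the Control members 236156, so depth limits the Control side most. The splits by Retn and by Prg4 were chosen after seeing the data. No paired analysis was possible because each group had 1 pooled library.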
